A study of Mus musculus with 5 samples.

Results

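Trim28 and 9 genes whose products act with it in heterochromatin were followed in mouse embryonic stem cells that carried short hairpins against Trim28, against Wtx or against GFP. The genes were taken by name: the corepressor Trim28 itself, the histone methyltransferase Setdb1 and its cofactor Atf7ip, the heterochromatin proteins Cbx1, Cbx3 and Cbx5, the zinc finger protein Zfp57, and Chd4, Hdac1 and Hdac2 of the NuRD complex. All 10 were found among the 28642 rows of the gene table, and all 10 passed the filter on low counts that left 10878 rows for testing. The cells were ES-D3, an established mouse embryonic stem cell line. They were kept with leukemia inhibitory factor on irradiated feeder cells, infected with a lentivirus that encodes the hairpin and selected with puromycin, and feeders were reduced by a short replating before RNA was taken. The shTrim28 group had 2 libraries, each with its own hairpin (replicates 1 and 2). The group labelled shWtx had 2 libraries, each with its own hairpin (replicates 1 and 2), and the shGFP control, with a hairpin against GFP, was 1 library. Each hairpin was thus measured in 1 library, nothing in the labels says that cultures were separate beyond the hairpins, and p-values measure only the spread between hairpin libraries, which may be technical in part. The question for these genes was whether the other parts of the silencing machinery changed at the RNA level when Trim28 was reduced, and where Trim28 stood in the cells with hairpins against Wtx.

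Trim28 (also called KAP1 or TIF1β) does not bind DNA by itself. It is brought to DNA by zinc finger proteins with a KRAB domain, among them Zfp57, which holds silencing at imprinted genes. At the bound site Trim28 acts as a scaffold for Setdb1, which methylates histone H3 at lysine K9 and is stabilised by Atf7ip, for the HP1 proteins encoded by Cbx5 (HP1α), Cbx1 (HP1β) and Cbx3 (HP1γ), which bind that mark, and for NuRD, a complex with the remodeler Chd4 and the deacetylases Hdac1 and Hdac2. In mouse embryonic stem cells this machinery is known for silencing endogenous retroviruses and for keeping imprints.

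The hairpin targets are shown because the libraries differ by them, and because the 2 hairpins against Trim28 strike separate exons while those against Wtx strike a single site. Each line gives the target with the mRNA sequence around it, 5′ to 3′, with the hairpin target in capitals, read from GENCODE M21 transcripts on GRCm38.
shTrim28 replicate 1: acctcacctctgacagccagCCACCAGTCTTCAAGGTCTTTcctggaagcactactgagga
shTrim28 replicate 2: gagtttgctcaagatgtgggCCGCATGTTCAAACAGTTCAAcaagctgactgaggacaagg
labelled shWtx replicate 1: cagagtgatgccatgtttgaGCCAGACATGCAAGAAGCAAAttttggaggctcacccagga
labelled shWtx replicate 2: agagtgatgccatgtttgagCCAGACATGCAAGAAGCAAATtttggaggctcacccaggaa

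The target of shTrim28 replicate 1 lay in coding sequence of exon 12 of the 17 exons of Trim28, at chr7:13029440-13029460 on the plus strand. That of replicate 2 lay in coding sequence of exon 16, at chr7:13030559-13030579. Both targets labelled Wtx lay in coding sequence of exon 2 of Amer1, the current symbol of Wtx, on the minus strand at chrX:95426292-95426312 and chrX:95426291-95426311. Each target matched 1 gene exactly. The closest ungapped match of a Wtx hairpin to the Trim28 transcript had 6 mismatches for replicate 1 and 7 for replicate 2. The hairpins against Trim28 had at least 6 mismatches to each of the transcripts used for the other 9 genes.

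Libraries held 280614 and 1901563 estimated counts in shTrim28, 763130 and 377794 in those labelled shWtx and 586408 in shGFP, so shTrim28 replicate 1 had the fewest. Wtx RNA, listed as Fam123b, stood at 18.1 and 30.3 CPM in shTrim28, at 26.3 and 16.5 CPM in the libraries labelled shWtx and at 14.3 CPM in shGFP. CPM scales each count to the same effective library size. The 36 fibroblast markers, which feeder cells express, summed to 7290 and 8003 CPM in shTrim28, to 3352 and 3767 CPM in the libraries labelled shWtx and to 3517 CPM in shGFP. Lum, Cnn1 and Thbs2 were at 0 in shTrim28 replicate 1, Loxl1 in labelled shWtx replicate 1, Lum and Loxl1 in labelled shWtx replicate 2, and Lum, Cnn1 and Ccdc80 in shGFP. The 23 pluripotency markers summed to 2631 and 2554 CPM in shTrim28, to 3884.5 and 4141 CPM in the libraries labelled shWtx and to 7701 CPM in shGFP, with Tcl1 and Prdm14 at 0 in shTrim28 replicate 1 and Dppa3 at 0 in labelled shWtx replicate 2. Pou5f1 (Oct4), a marker of the embryonic stem cells named in the label, was counted in all 5 libraries. It stood at 298 and 212 CPM in shTrim28, at 523 and 507 CPM in the libraries labelled shWtx and at 856 CPM in shGFP. A single marker does not show what share of the cells were stem cells. Chemoreceptor genes, which stem cells are not known to use, were counted at 1.16 and 0.797 CPM per kb in shTrim28, at 2.32 and 1.97 CPM per kb in the libraries labelled shWtx and at 0.176 CPM per kb in shGFP. That level serves below as a measure of reads that do not come from a gene's own RNA. For Fam123b, which has a long transcript, it would give 9.85 and 6.77 CPM in shTrim28, 19.7 and 16.8 CPM in the libraries labelled shWtx and 1.496 CPM in shGFP. The log2 fold change of Fam123b in the libraries labelled shWtx was 0.65 (adjusted p = 0.508) as counted and −1.71 (adjusted p = 0.413) with that level subtracted. With 19 and 6 counts there and 8 in shGFP, these data show neither the presence nor the absence of a knockdown of Wtx, hence the name libraries labelled shWtx.

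Trim28 RNA was much lower in both libraries with a hairpin against it than in shGFP. It stood at 65.3 CPM (exact 95% Poisson interval 38.7 to 103) and 48.3 CPM (38.6 to 59.6) in shTrim28, against 783 CPM (711 to 860) in shGFP. The intervals cover counting error only, and rest on 18 and 86 counts in shTrim28 and 437 counts in shGFP. The hairpins of the pair did not differ beyond counting error, with a ratio of 1.35 (0.766 to 2.27) between replicates 1 and 2. The mean was 56.8 ± 12.1 CPM (SD, n = 2) in shTrim28. The fitted level, to which the deeper library contributes more, was 14.8-fold lower than in shGFP, a log2 fold change of −3.88 (adjusted p = 2.78e-09, with an SE of 0.29). Only 1 of the 10878 genes in the test fell further. Without shTrim28 replicate 1 the log2 fold change was −4.02, and the call was lost. No gene kept a call in any comparison of that fit, including that of the libraries labelled shWtx against shGFP, which lost no library. The fit without shTrim28 replicate 2 also left 1 library in shTrim28. Trim28 kept its call there, with a log2 fold change of −3.59. Why calls were lost without replicate 1 only was not tested. In bulk RNA, fewer cells of a type and less RNA per cell cannot be told apart. The pluripotency markers were lower and the fibroblast markers higher in the same libraries, and their part in the level of Trim28 was not tested. The marker Pou5f1 had a log2 fold change of −1.80 in the same comparison (adjusted p = 5.48e-05).

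**Figure D1:**
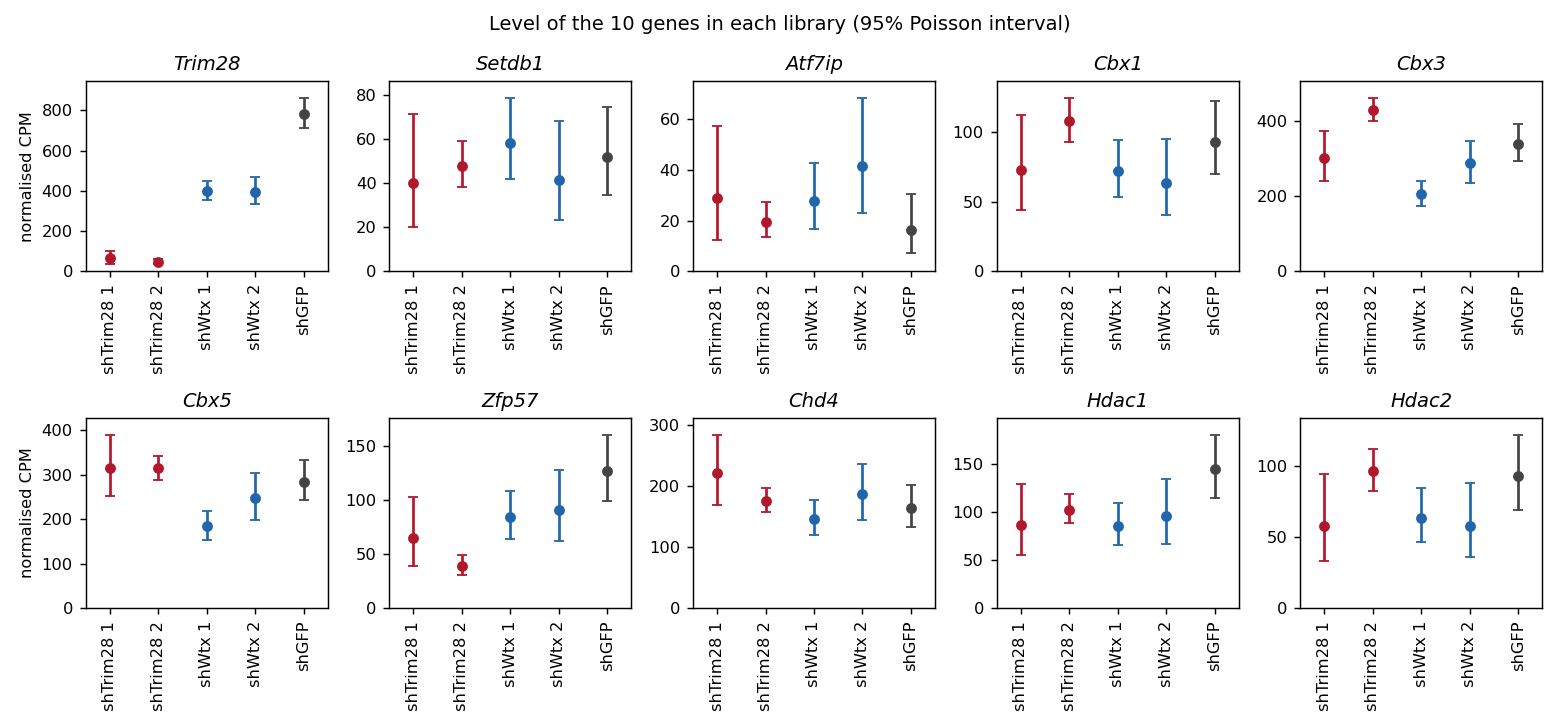
Normalised CPM of the 10 genes in each library (vertical axis, starting at 0 and scaled for each gene), with shTrim28 at the left, the libraries labelled shWtx in the middle and shGFP at the right; bars are exact 95% Poisson intervals of the counts. Trim28 drops to 65.3 and 48.3 CPM in shTrim28 and Zfp57 to 65.3 and 39.3 CPM, against 783 and 127 CPM in shGFP.

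In the libraries labelled shWtx, Trim28 stood between the other groups. It was counted at 399.5 CPM (355 to 448) and 396 CPM (334 to 467), against 783 CPM in shGFP, so both libraries were below the control and nearly equal to each other. The log2 fold change was −0.97 (adjusted p = 0.0108, with an SE of 0.26), a level 1.97-fold lower. Genes of a similar level shifted in the same direction there. The class of 410 genes averaging 200 to 400 CPM showed a median log2 fold change of −0.50. Trim28 differed from that median by −0.48 on the log2 scale, and 8.05% of the class had a lower value. In shTrim28 the class median was −0.16, and no gene of the class was lower than Trim28. Pluripotency markers were also lower in the libraries labelled shWtx. Of 20 tested, 8 fell and 0 rose against shGFP, with a median log2 fold change of −0.83. Of 31 fibroblast markers tested there, 4 rose and 2 fell. Among all genes tested in that comparison, 10.9% were called higher and 4.94% lower. The part of cell makeup in the level of Trim28 in these libraries was not tested. The call in the libraries labelled shWtx passed in 6 of 12 alternative settings. It was lost after subtracting the chemoreceptor level, scaled by transcript length (log2 fold change −0.74, adjusted p = 0.0674) and without labelled shWtx replicate 1 (adjusted p = 0.113), labelled shWtx replicate 2 (adjusted p = 0.0617) or shTrim28 replicate 1 (adjusted p = 0.177), and with no low-count filter (adjusted p = 0.0991). Set directly against each other, shTrim28 had a fitted level 7.51-fold lower than the libraries labelled shWtx, a log2 fold change of −2.91 (adjusted p = 1.4e-07, with an SE of 0.27). Without shTrim28 replicate 1, the adjusted p was 0.157.

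**Figure D2:**
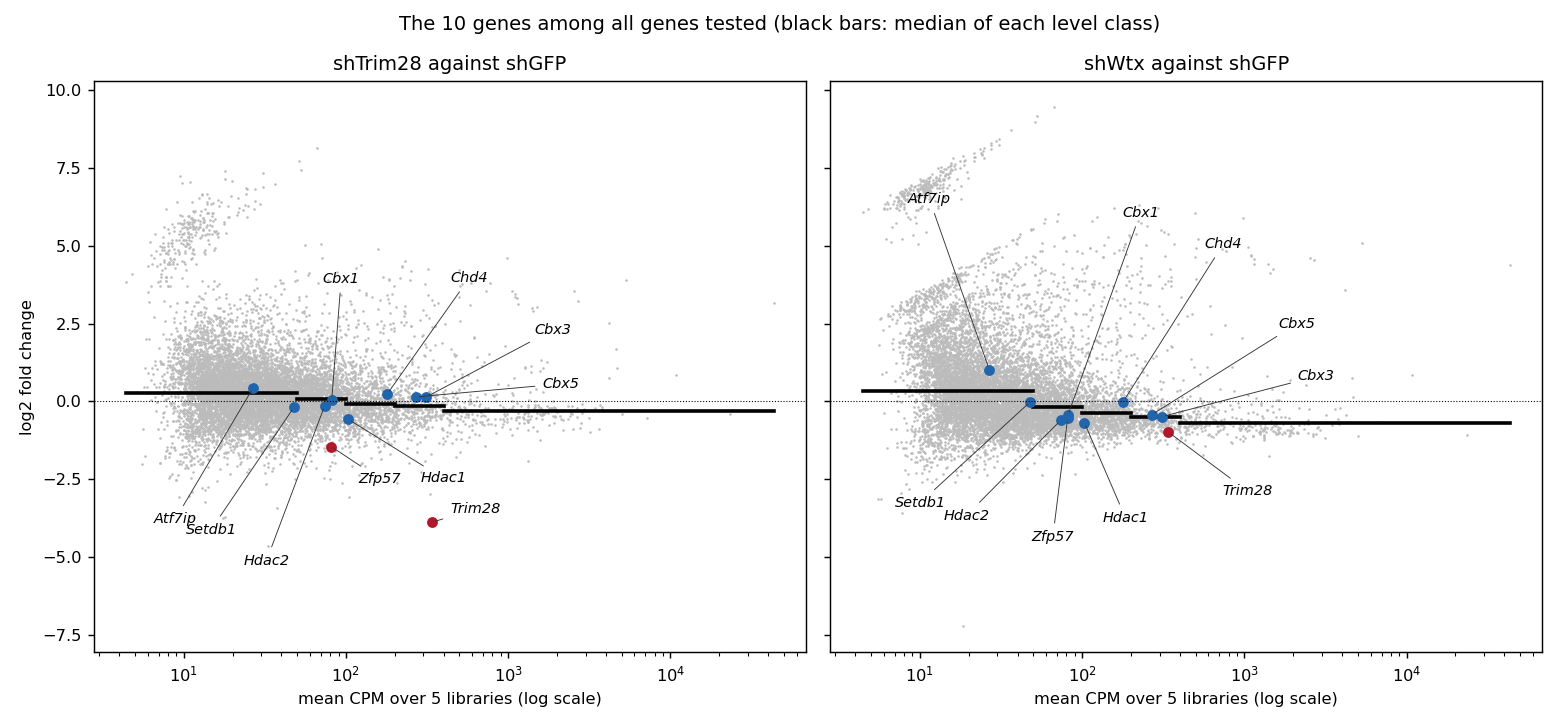
Log2 fold change (vertical axis) against mean CPM over the 5 libraries (horizontal axis, logarithmic), with shTrim28 against shGFP at the left and the libraries labelled shWtx against shGFP at the right; grey points are tested genes, named points the 10 genes (red where called) and black bars the median of each level class. In the libraries labelled shWtx, genes of 200 to 400 CPM have a median of −0.50 and Trim28 lies at −0.97, whereas in shTrim28 it lies at −3.88, below every gene of its class.

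Setdb1, which writes the H3K9 methyl mark at Trim28 sites, and Atf7ip, which stabilises Setdb1, did not pass the test in any comparison. Setdb1 stood at 39.9 and 47.7 CPM in shTrim28, at 58.1 and 41.3 CPM in the libraries labelled shWtx and at 51.9 CPM in shGFP. The shTrim28 libraries were both slightly below the control, and those labelled shWtx lay on either side of it. The log2 fold change was −0.19 (95% interval −0.99 to 0.62, adjusted p = 0.835) in shTrim28 and −0.017 (−0.84 to 0.81, adjusted p = 0.983) in the libraries labelled shWtx. A p that misses the threshold does not show equal levels, and these intervals are wide. Atf7ip had the lowest mean CPM of the 10 genes, with 29.0 and 19.6 CPM in shTrim28, 27.6 and 41.3 CPM in the libraries labelled shWtx and 16.1 CPM in shGFP. All 4 hairpin libraries had a higher value than shGFP, with log2 fold changes of 0.43 (−0.77 to 1.64, adjusted p = 0.736) in shTrim28 and 1.03 (−0.16 to 2.21, adjusted p = 0.231) in the libraries labelled shWtx. The chemoreceptor level alone would account for 31.3% and 32.8% of its counts in shTrim28, 66.8% and 39.6% in the libraries labelled shWtx and 8.61% in shGFP. With that level subtracted, the log2 fold change was 0.15 (adjusted p = 0.965) in shTrim28 and 0.40 (adjusted p = 0.824) in the libraries labelled shWtx. Atf7ip passed the test in 0 of 12 alternatives in both of these comparisons. Reads of Setdb1 may include those of Gm4349, since 11.5% of its 30-base stretches occur in other genes, and Setdb1 overlaps Cers2 on the opposite strand. Cers2, listed as Lass2, stood at 43.5 and 42.1 CPM in shTrim28, 30.4 and 27.5 CPM in the libraries labelled shWtx and 37.6 CPM in shGFP.

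The proportion of Trim28 to Setdb1 RNA was lower in shTrim28. There were 1.64 and 1.01 counts of Trim28 for each count of Setdb1 in shTrim28, 6.88 and 9.60 in the libraries labelled shWtx and 15.1 in shGFP. Of the counts of both genes, Trim28 made 62.1% (exact 95% binomial interval 42.3 to 79.3) and 50.3% (42.6 to 58.0) in shTrim28, against 93.8% (91.2 to 95.8) in shGFP. The shares in the libraries labelled shWtx were 87.3% (83.2 to 90.7) and 90.6% (84.9 to 94.6). The intervals of shTrim28 lay below those of all other libraries. Of the summed counts of all 10 genes, Trim28 made 5.20% and 3.50% in shTrim28, 30.1% and 26.3% in the libraries labelled shWtx and 37.3% in shGFP.

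The HP1 genes, whose products bind methylated H3K9, were not called in any comparison, except Cbx3 under an alternative scaling. Cbx3 was counted at 301 and 428 CPM in shTrim28, at 205 and 286 CPM in the libraries labelled shWtx and at 338 CPM in shGFP. Its shTrim28 libraries lay on either side of the control. Cbx5 was counted at 316 and 314 CPM in shTrim28, at 184 and 248 CPM in the libraries labelled shWtx and at 285 CPM in shGFP, so that shTrim28 was slightly above and the libraries labelled shWtx below the control. Cbx1 was counted at 72.6 and 108 CPM in shTrim28, at 71.9 and 63.3 CPM in the libraries labelled shWtx and at 93.1 CPM in shGFP. Against shGFP, the log2 fold changes in shTrim28 were 0.14 (−0.46 to 0.74, adjusted p = 0.833) for Cbx3, 0.14 (−0.43 to 0.72, adjusted p = 0.822) for Cbx5 and 0.044 (−0.65 to 0.74, adjusted p = 0.963) for Cbx1, which turned to −0.056 with DESeq2 size factors. Those in the libraries labelled shWtx were −0.48, −0.42 and −0.44, with adjusted p of 0.271, 0.329 and 0.414. Set against the libraries labelled shWtx, shTrim28 had log2 fold changes of 0.63 (adjusted p = 0.0804) for Cbx3, 0.57 (adjusted p = 0.104) for Cbx5 and 0.49 (adjusted p = 0.249) for Cbx1. With quantile normalization in limma, Cbx3 passed in that comparison, at 0.61 (adjusted p = 0.0387). Cbx3 shares 32.8% of its 30-base stretches with other genes, mostly its processed copies, so its level is uncertain where reads were split among them.

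Within the HP1 family the intervals of the shares in shTrim28 and shGFP overlapped for all 3 genes. These are shares of counts not divided by transcript length, so they are compared between libraries and do not give proportions of transcripts. The transcripts used were 8.803 kb for Cbx5, 1.889 kb for Cbx3 and 1.251 kb for Cbx1. Cbx3 made 43.7% and 50.3% of HP1 counts in shTrim28, 44.4% and 47.9% in the libraries labelled shWtx and 47.3% in shGFP. Cbx5 made 45.8% and 37.0% in shTrim28, 39.9% and 41.5% in the libraries labelled shWtx and 39.8% in shGFP, while Cbx1 stayed between 10.5% and 15.6% in all 5 libraries. For Cbx3 and Cbx5, the shTrim28 libraries lay on either side of shGFP. Trim28 counts per HP1 count were 0.0947 and 0.0568 in shTrim28, 0.868 and 0.664 in the libraries labelled shWtx and 1.09 in shGFP. The hairpins of each pair were also compared per gene by the ratio between replicates. Where counts are few, an interval that holds 1 does not show equal levels, as for Atf7ip in shTrim28 (1.48, 0.592 to 3.24). Of 20 ratios, 17 had a counting interval that held 1. The other 3 were Cbx3 in shTrim28 (0.704, interval 0.555 to 0.884), Cbx3 in the libraries labelled shWtx (0.714, 0.552 to 0.927) and Cbx5 in the libraries labelled shWtx (0.742, 0.564 to 0.981), with replicate 1 the lower in each.

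**Figure D3:**
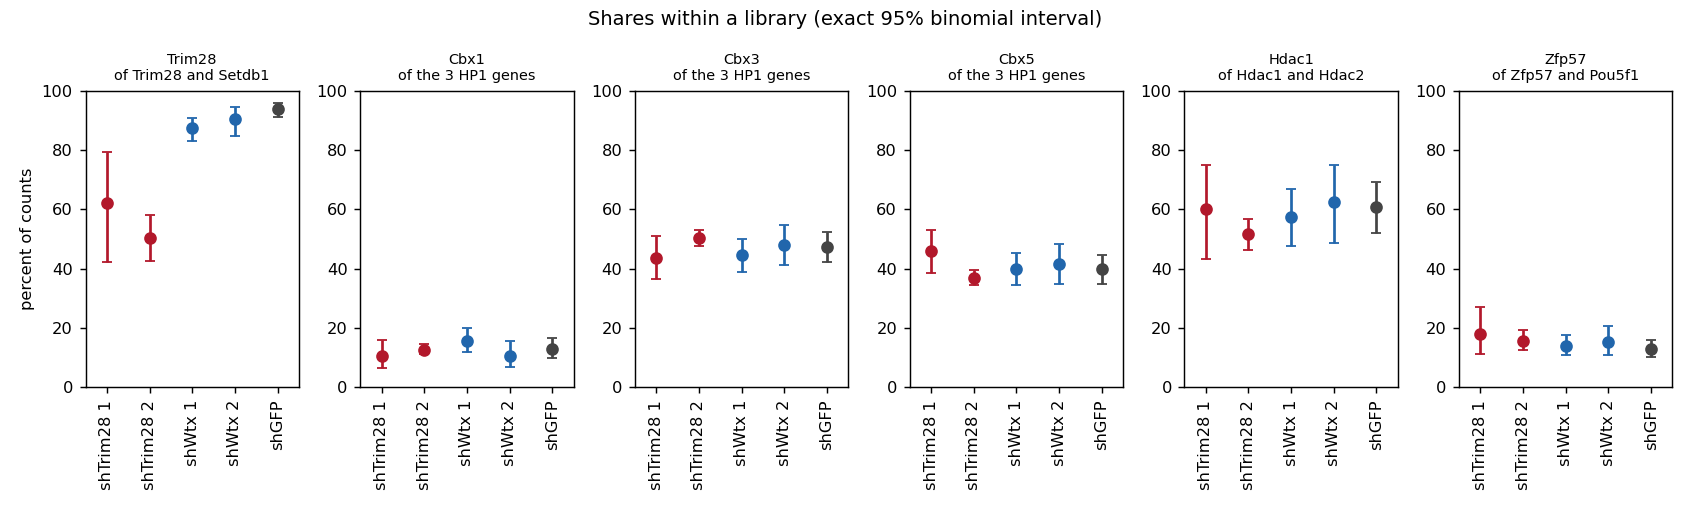
Percent of counts (vertical axis) in each library for Trim28 of Trim28 and Setdb1, each HP1 gene of the HP1 family, Hdac1 of Hdac1 and Hdac2, and Zfp57 of Zfp57 and Pou5f1; bars are exact 95% binomial intervals. Trim28 makes 62.1% and 50.3% in shTrim28, against 93.8% in shGFP, and the intervals of the other shares overlap between shTrim28 and shGFP.

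Of the NuRD genes, none of Chd4, Hdac1 and Hdac2 passed the test. Chd4, the ATP-dependent remodeler, stood at 221 and 177 CPM in shTrim28, at 147 and 187 CPM in the libraries labelled shWtx and at 165 CPM in shGFP. Its shTrim28 libraries lay slightly above the control, with a log2 fold change of 0.24 (−0.39 to 0.86, adjusted p = 0.722). The deacetylase Hdac1 stood at 87.1 and 103 CPM in shTrim28, at 85.7 and 96.4 CPM in the libraries labelled shWtx and at 145 CPM in shGFP. All 4 hairpin libraries were below the control, with log2 fold changes of −0.57 (−1.21 to 0.064, adjusted p = 0.316) in shTrim28 and −0.68 (−1.34 to −0.033, adjusted p = 0.143) in the libraries labelled shWtx. Hdac1 is uncertain, since 63.0% of its 30-base stretches occur in other genes, above all Gm10093. Hdac2, its paralog, stood at 58.1 and 96.5 CPM in shTrim28, at 63.6 and 57.8 CPM in the libraries labelled shWtx and at 93.1 CPM in shGFP, and shTrim28 spanned the control. The log2 fold change was −0.15 (adjusted p = 0.857) in shTrim28 and −0.60 (adjusted p = 0.269) in the libraries labelled shWtx. Hdac1 made 60% and 51.5% of the counts of both deacetylases in shTrim28, 57.4% and 62.5% in the libraries labelled shWtx and 60.9% in shGFP.

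Zfp57, the KRAB zinc finger protein that reads the methylated imprint sites, was the only other gene of the 10 to fall. It stood at 65.3 CPM (38.7 to 103) and 39.3 CPM (30.6 to 49.6) in shTrim28, at 84.3 and 90.9 CPM in the libraries labelled shWtx and at 127 CPM (99.3 to 160.4) in shGFP. Both shTrim28 libraries were below both libraries labelled shWtx, and all 4 were below shGFP. Its mean was 52.3 ± 18.4 CPM (SD, n = 2) in shTrim28. The fitted level was 2.74-fold lower than in shGFP, a log2 fold change of −1.45 (adjusted p = 0.0111, with an SE of 0.35). In the class of 1882 genes averaging 50 to 100 CPM, 1.49% had a lower value, beside a class median of 0.065. The call was lost without shTrim28 replicate 1 (adjusted p = 0.328), without shTrim28 replicate 2 (log2 fold change −0.97, adjusted p = 0.199) and with no filter on low counts (adjusted p = 0.167). DESeq2's Wald test gave Zfp57 no adjusted p. The libraries labelled shWtx had a value of −0.55 on the log2 scale against shGFP (adjusted p = 0.283, with an SE of 0.34). Set against those libraries, shTrim28 had a log2 fold change of −0.91 (adjusted p = 0.0474, with an SE of 0.31). That call was lost in each leave-out of a hairpin library and passed in 6 of 12 alternatives.

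Zfp57 fell beside pluripotency markers. Of 20 such genes tested, 13 fell and 0 rose in shTrim28 against shGFP, and of 31 fibroblast markers tested 13 rose and 0 fell. Among all genes tested in that comparison, 2.26% were called lower and 4.27% higher. Zfp57 counts per 100 Pou5f1 counts were 21.95 and 18.5 in shTrim28, 16.1 and 17.9 in the libraries labelled shWtx and 14.9 in shGFP. Per 100 counts of Zfp42 (Rex1), a naive stem cell marker, they were 58.1 and 47.6 in shTrim28, 23.2 and 25.4 in the libraries labelled shWtx and 17.4 in shGFP. Of the counts of Zfp57 and Pou5f1, Zfp57 made 18% (exact 95% binomial interval 11.03 to 26.9) and 15.6% (12.4 to 19.3) in shTrim28 and 12.9% (10.2 to 16.0) in shGFP, and these intervals overlap. Col1a2, a collagen of fibroblasts, was at 461 and 559 CPM in shTrim28, at 178 and 201 CPM in the libraries labelled shWtx and at 141 CPM in shGFP. The part of cell makeup in the level of Zfp57 was not tested.

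Against shGFP, 2 of the 10 genes fell in shTrim28 and 0 rose, where 6.53% of all 10878 genes were called, 4.27% higher and 2.26% lower. The 2 genes were Trim28, which the hairpins target, and Zfp57. For the libraries labelled shWtx 1 of 10 fell and 0 rose, where 15.8% of all genes were called, 10.9% higher and 4.94% lower. Between shTrim28 and the libraries labelled shWtx 2 of 10 fell and 0 rose, where 15.3% of all genes were called, 5.45% higher and 9.83% lower. Whatever the test, 5, 1 and 6 of the 10 genes had a log2 fold change above 0 in these comparisons, beside 57.6%, 52% and 51.2% of all genes. Groups did not overlap for 7, 8 and 5 of the 10 genes in these comparisons, beside 75.9%, 83.8% and 55.6% of all genes, so separation of the groups was no more frequent in the 10 than in the table. The 9 genes other than Trim28 had a median log2 fold change of 0.044 in shTrim28, of −0.44 in the libraries labelled shWtx and of 0.24 for shTrim28 against the libraries labelled shWtx, beside 0.16, 0.061 and 0.023 for all genes. Genes of the level of most of the 10 were lower in the libraries labelled shWtx, with class medians of −0.19 at 50 to 100 CPM, −0.39 at 100 to 200 CPM and −0.50 at 200 to 400 CPM, against 0.35 under 50 CPM. Cbx3 and Cbx5 differed from their class median by 0.014 and 0.078 there, Hdac1 by −0.30 and Chd4 by 0.38. The comparisons share libraries, and their values are set side by side only. Summed over these 9 genes, levels were 1190.1 and 1332 CPM in shTrim28, 926 and 1112 CPM in the libraries labelled shWtx and 1314.5 CPM in shGFP.

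**Figure D4:**
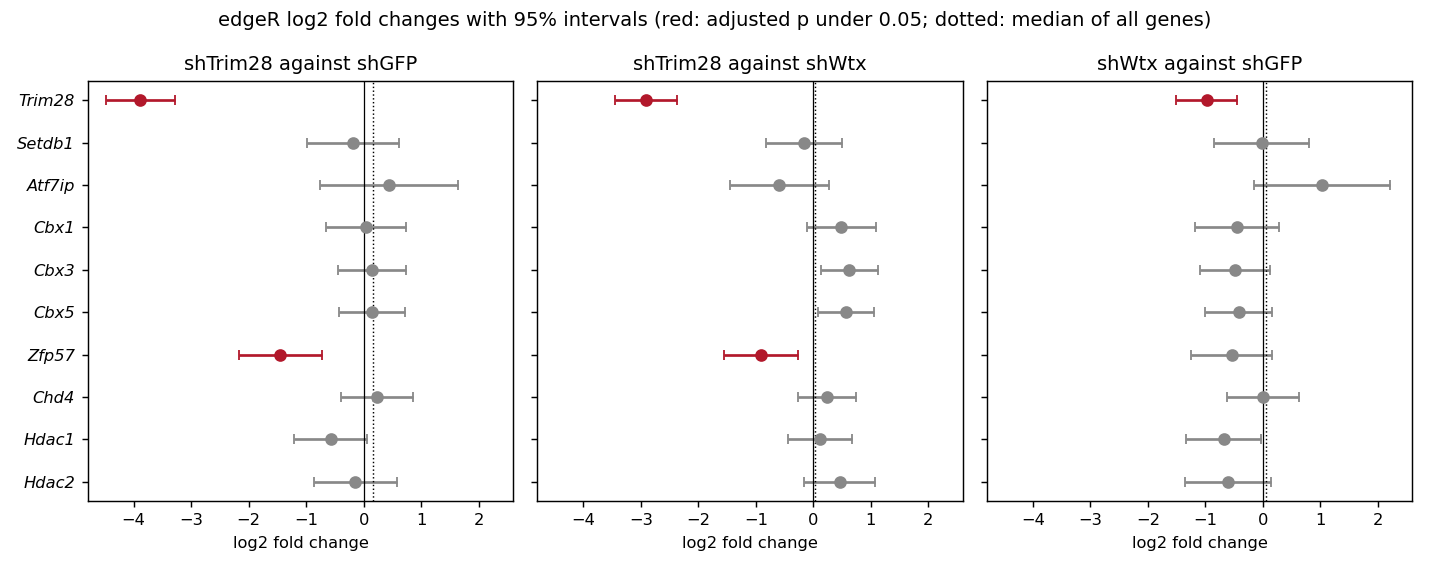
Log2 fold change (horizontal axis) of each of the 10 genes with its 95% interval, red where called and with the median of all genes dotted, in 3 panels: shTrim28 against shGFP, shTrim28 against the libraries labelled shWtx, and those against shGFP. Trim28 lies at −3.88, −2.91 and −0.97, Zfp57 at −1.45, −0.91 and −0.55, and of the other genes only Cbx3 and Cbx5 (middle panel) and Hdac1 (right panel) have an interval without 0.

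Divided by transcript length, so that genes can be ordered, Trim28 was the most abundant of the 10 in shGFP at 241 CPM per kb. It was followed by Cbx3 at 179 CPM per kb, Cbx1 at 74.4, Hdac1 at 71.2, Zfp57 at 49.0, Hdac2 at 46.4, Cbx5 at 32.3, Chd4 at 24.6, Setdb1 at 11.1 and Atf7ip at 2.00 CPM per kb. Neighbours from Cbx1 down to Chd4 had overlapping counting intervals, while Trim28, Cbx3, Setdb1 and Atf7ip were each apart from their neighbours. Trim28 was 8 in this order in both shTrim28 libraries, at 20.1 and 14.9 CPM per kb, and Cbx3 led at 159 and 226 CPM per kb. For the libraries labelled shWtx its places were 1 and 2, at 123 and 122 CPM per kb, with Cbx3 at 108 and 152 CPM per kb. By CPM among all 28642 rows, Trim28 ranked 2675 and 3675 in shTrim28, 311 and 310 in the libraries labelled shWtx and 195 in shGFP. Setdb1 and Atf7ip kept places 9 and 10 in all 5 libraries. Zbtb45 overlaps Trim28 on the opposite strand. It was counted at 10.9 and 15.2 CPM in shTrim28, 15.2 and 8.26 CPM in the libraries labelled shWtx and 12.5 CPM in shGFP. With 3, 27, 11, 3 and 7 counts in that order, these values do not show whether its level was equal.

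A list of 49 other genes of the same pathway was followed beside the 10, and 43 could be tested. In shTrim28, 2 of the 43 fell and 0 rose against shGFP, beside 2.26% lower and 4.27% higher among all genes. Chaf1b, a subunit of the histone chaperone CAF-1, stood at 43.5 and 37.6 CPM in shTrim28, at 99.5 and 93.6 CPM in the libraries labelled shWtx and at 154 CPM in shGFP. Its log2 fold change in shTrim28 was −1.97 (adjusted p = 0.000253, with an SE of 0.33), and the call was lost without shTrim28 replicate 1 (adjusted p = 0.328). Rbbp4, a histone-binding subunit shared by NuRD and CAF-1, stood at 283 and 366 CPM in shTrim28, at 307 and 396 CPM in the libraries labelled shWtx and at 623 CPM in shGFP. All 4 hairpin libraries were below the control, with log2 fold changes of −0.91 (adjusted p = 0.0389) in shTrim28 and −0.84 (adjusted p = 0.0354) in the libraries labelled shWtx. The call in shTrim28 passed in 8 of 12 alternatives and was lost without shTrim28 replicate 1 or labelled shWtx replicate 1, and that in the libraries labelled shWtx passed in 4 of 12 and was lost without shTrim28 replicate 1 or either labelled shWtx library. Cdk2ap1, a small NuRD subunit, also fell in the libraries labelled shWtx, where 2 of the 43 fell and 0 rose, beside 4.94% lower and 10.9% higher among all genes. Cdk2ap1 stood at 88.5 and 110.1 CPM there, against 201 CPM in shGFP, a log2 fold change of −1.04 (adjusted p = 0.0208). Its call passed in 6 of 12 alternatives and was lost without labelled shWtx replicate 1 or shTrim28 replicate 1.

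By role, the H3K9 methyltransferases and their cofactors (7 tested) had 0 calls in shTrim28 against shGFP. Their median log2 fold change was 0.69, beside 0.16 for all genes and 0.28 for genes under 50 CPM. That median is the value of Atf7ip2, which had 3 and 28 counts in shTrim28 and 5 in shGFP. Ehmt2 (G9a) and Ehmt1 (GLP), a pair of H3K9 methyltransferases, were at 0.13 and −0.14. Of the HUSH complex, which silences retroelements, 0 of 3 were called, and Mphosph8 and Pphln1 were at −0.012 and 0.87. Other NuRD subunits (10 tested, 1 called) had a median of −0.39, with Rbbp7 at −0.14 and Gatad2a at −0.46, neither called. The Tif1 family relatives of Trim28, Trim24 and Trim33, were at 0.0055 and −0.38 with 0 of 3 called. In the SUMO pathway, which modifies Trim28, 0 of 8 were called, with Sumo2 at −0.34. Among 6 chaperones and remodelers, Atrx was at 0.57 and Smarcad1 at −0.10, and Chaf1b alone was called. Rcor2, the corepressor tested for the Lsd1 complex, was at −0.93 (adjusted p = 0.388). Of 5 KRAB zinc finger genes tested that are known to recruit Trim28, 0 were called against shGFP, with a median of 0.071, Zfp445 at 0.51, Zfp809 at 0.61, Zfp568 at −0.83 (adjusted p = 0.363) and Zfp689 at −1.11 (adjusted p = 0.203).

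Between shTrim28 and the libraries labelled shWtx, 1 of the 43 rose and 3 fell, beside 5.45% higher and 9.83% lower among all genes. Resf1, listed as 2810474O19Rik, is known to act in retroelement silencing with Setdb1. It was at 243 and 285 CPM in shTrim28, against 149 and 179 CPM in the libraries labelled shWtx, a log2 fold change of 0.72 (adjusted p = 0.0409). In shGFP it was at 161 CPM. Against shGFP it was not called, with log2 fold changes of 0.73 (adjusted p = 0.159) in shTrim28 and 0.011 (adjusted p = 0.986) in the libraries labelled shWtx. The KRAB zinc finger genes Zfp568 and Zfp689 were at −1.27 (adjusted p = 0.0259) and −1.25 (adjusted p = 0.0354) on the log2 scale, and Chaf1b at −1.31 (adjusted p = 0.00341). Resf1 passed in 2 of 12 alternatives, Zfp568 in 4 of 12, Zfp689 in 5 of 12 and Chaf1b in 7 of 12. Resf1, Zfp568 and Zfp689 were lost without any single hairpin library, and Chaf1b without either shTrim28 library or labelled shWtx replicate 1.

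**Figure D5:**
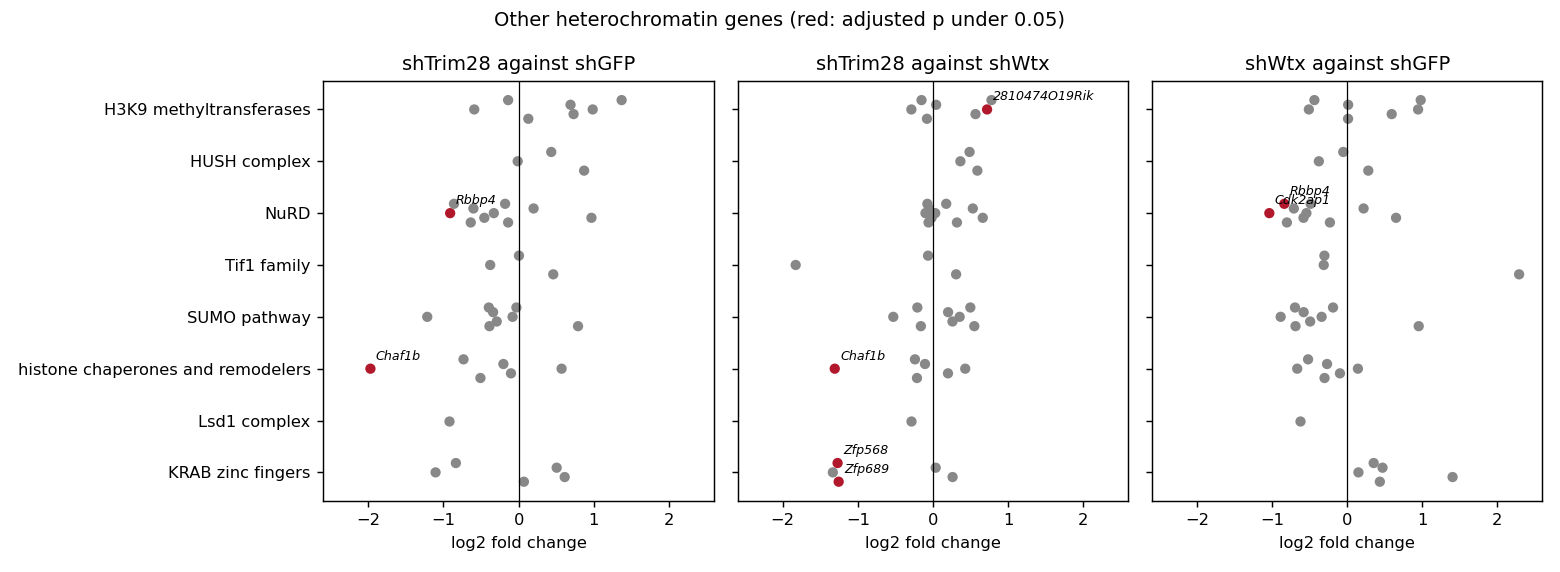
Log2 fold change (horizontal axis) of the 43 other tested heterochromatin genes by role, in 3 panels (shTrim28 against shGFP, shTrim28 against the libraries labelled shWtx, and those against shGFP); red points passed the test. Chaf1b at −1.97 and Rbbp4 at −0.91 are the called genes of the left panel.

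Finally, the genes whose levels over the 5 libraries were most like those of 3 of the 10 were listed, with likeness taken as the Euclidean distance between log2 CPM profiles centred on each gene's mean, among 3303 genes with a mean of at least 50 CPM. For Trim28 these were Zfp42 (distance 0.963), Chrna1 (1.18), which encodes a subunit of the muscle acetylcholine receptor, and Utf1 (1.45), a stem cell chromatin protein, against a median distance of 3.66 over all genes. For Zfp57 they were Trim6 (0.141), 6330545A04Rik (0.161) and Usp29 (0.243), a gene of the imprinted Peg3 region, against a median of 1.49. For Cbx5 they were Cnpy2 (0.0487), Zcchc17 (0.104) and Gpbp1 (0.116), against a median of 0.775. With 5 libraries these distances are descriptions and were not tested.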

How the data were processed

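RNA was sequenced by single-molecule sequencing on the Helicos platform without amplification, per the labels. The authors deposited a gene table of estimated counts without scaling between libraries, aligned to RefSeq, per the labels, and the submitters' processing notes name mm9. How strand was used, and which aligner and counter were run, are details not given in the sources used here. The deposited repeat table was not used. Totals ranged from 280614 to 1901563 estimated counts, and with 18 counts of Trim28 in the smallest library, single values of low genes are imprecise.

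Estimated counts were rounded. edgeR 4.0.16 (R 4.3.3, limma 3.58.1) was run with TMM scaling, filterByExpr by group and the quasi-likelihood test, without covariates, on all 5 libraries, and 10878 rows were tested. Tests were two-sided, and the Benjamini-Hochberg adjustment ran over all rows, with a threshold of 0.05. The control is 1 library, so both hairpin pairs set the spread, with 2 residual degrees of freedom and a biological coefficient of variation of 0.168. Standard errors are the log2 fold change divided by the square root of F and are approximate. CPM uses effective library sizes, and lengths came from GENCODE M21. The test was checked on simulated data. The 10 genes, the lists and the choice of named genes (all 10 genes, called genes of each list and up to 2 uncalled ones of the highest level, and the 3 nearest profiles of Trim28, Zfp57 and Cbx5) were chosen with earlier results of these data known. For the alternative called DESeq2 size factors, edgeR was run with its relative log expression scaling in place of TMM. Other alternatives were the Wald test of DESeq2 1.42.0, no low-count filter, limma with quantile normalization and subtraction of the chemoreceptor level. Further ones took 2 groups at a time or left out each library. Fits on rows with a transcript length, with and without that subtraction, were chosen after seeing the data. Of the 49 listed pathway genes, 46 were matched by symbol. A gene that this choice would name is not reported here.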

Additional observations from a re-analysis of the deposited data

How the results depend on the processing

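The fall of Trim28 in shTrim28 against shGFP passed in 11 of 12 alternatives, and that of Zfp57 in 8 of 12. Of the 10 genes, 2, 1 and 2 were called in shTrim28 against shGFP, in the libraries labelled shWtx against shGFP and in shTrim28 against the libraries labelled shWtx. With DESeq2's Wald test these counts were 1, 1 and 1, and with no low-count filter 1, 0 and 1. With the chemoreceptor level subtracted, in all rows or in rows with a transcript length, the middle count was 0 by edgeR, with 1 of 10 at an unadjusted p under 0.05. Quantile normalization gave 2, 1 and 3, with Cbx3 added. Leaving out single libraries gave 0 to 2, 0 to 1 and 0 to 2. Of all genes, 710, 1721 and 1662 were called. The Wald test called 278, 548 and 400, no filter 319, 1143 and 912, and subtraction in rows with a length 357, 524 and 888. Subtraction in all rows called 415 and 879 in the first 2, and quantile normalization 671 in the libraries labelled shWtx. Leave-outs called 0 to 798, 0 to 2340 and 0 to 1470. The 0 came without shTrim28 replicate 1, where edgeR had 1675, 2804 and 3113 genes at an unadjusted p under 0.05. A group left with 1 library is assumed to vary like the others.

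The split of calls in shTrim28 against shGFP was 464 higher and 246 lower, but 390 and 336 with DESeq2 size factors, 204 and 302 with quantile normalization and 316 and 377 in rows with a length. Over all genes the median was 0.16 on the log2 scale, and 0.064, −0.031 and 0.042 in those settings, and 0.57 with no filter. In the libraries labelled shWtx the split was 1184 and 537, but 827 and 703 in rows with a length. There the median was 0.061, −0.20 with quantile normalization and 0.83 with no filter.

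Of the 10 genes' log2 fold changes 25 values changed sign, none past the threshold, and the cause was not tested. In shTrim28 against shGFP, Cbx1 was −0.056 with DESeq2 size factors, −0.11 by the Wald test, −0.027 with 2 groups and −0.049 in rows with a length. Leave-outs ranged from −0.37 to 0.21 for Cbx1, −0.18 to 0.33 for Cbx3 and −0.69 to 0.048 for Hdac2. In the libraries labelled shWtx, Chd4 was 0.10 with quantile normalization, 0.14 with subtraction, 0.026 with 2 groups and 0.27 with subtraction in rows with a length, and Setdb1 was 0.024 with 2 groups and 0.075 with that subtraction. Leave-outs ranged from −0.16 to 0.15 for Chd4 and −0.37 to 0.16 for Setdb1. Between shTrim28 and the libraries labelled shWtx, Setdb1 was 0.084 with no filter, and Hdac1 −0.066 with subtraction and −0.16 with that in rows with a length. Leave-outs ranged from −0.41 to 0.090 for Setdb1, −0.091 to 0.20 for Hdac1 and −0.12 to 0.67 for Hdac2.

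No paired analysis was possible because the hairpin numbers differ between targets and no replicate number is shared in the labels.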
